A study of Mus musculus with 12 samples.

Results

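The 10 genes described here are Myc and Mycl, which encode MYC family transcription factors, Max and Mxd1, which encode their partner and a competitor for it, the D-type cyclins Ccnd1, Ccnd2 and Ccnd3, their kinases Cdk4 and Cdk6, and the kinase inhibitor Cdkn1a. They were chosen by name, as the entries of the count table whose Ensembl identifier maps to these symbols, and make up 10 of 48526 genes in the table. Of the 10, 9 had at least 10 counts in at least 3 libraries and were tested. Mycl was the member not tested, with between 1 and 10 counts per library.

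The samples were bone marrow-derived macrophages (BMDMs) from 3 female C57Bl/6J mice, grown from whole marrow in macrophage colony-stimulating factor (mCSF) and used on day 7 of culture. The 4 groups of 3 were untreated cells and cells given 100 ng/mL Wnt3a, 100 pg/mL IL-4 or both together for 16 hours, and 1 culture of each mouse entered every group. RNA was sequenced as single reads. All groups shared the strain, the sex and the mCSF culture, and no vehicle is stated for the untreated cells. In the deposited table the Wnt3a column of each mouse lay between 1 and 2 times the Wnt3a+IL4 column (0 exceptions among 48526 genes in any mouse), whereas pairs of columns from different mice put between 6681 and 8625 genes outside this range.

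The Wnt3a-treated columns of a mouse were therefore taken to share reads and were separated before any comparison. For each mouse, the difference is the Wnt3a column minus the Wnt3a+IL4 column, and the remainder is 2 times the Wnt3a+IL4 column minus the Wnt3a column. Each is used as 1 library from Wnt3a-treated cells, and the labels do not say which of them also received IL-4. The 12 libraries so obtained held between 13342492 and 17453377 counts. The 8 macrophage markers were all present and summed to between 43862 and 67711 counts per 1000000 (CPM) in each library. The 5 dendritic cell markers summed to between 1.44 and 2.42 CPM in untreated cells, 2.24 and 2.43 CPM with IL-4, 2.84 and 7.61 CPM in the difference and 8.41 and 21.2 CPM in the remainder, and the 8 neutrophil markers to between 48.9 and 61.2, 64.7 and 75.2, 35.7 and 56.5, and 32.0 and 36.3 CPM in the same order. Among the dendritic cell markers, Ccr7 averaged 0.257, 0.405, 4.05 and 11.3 CPM in this order, whereas Cd209a averaged 1.09, 0.824, 0 and 0.0621 CPM. The others, Flt3, Zbtb46 and Xcr1, averaged at most 1.13 CPM in any group. The part of dendritic cells and neutrophils in the values below was not tested. In bulk RNA, fewer cells that express a gene and less of its RNA per cell cannot be told apart.

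As background, MYC proteins pair with MAX and bind the E-box CACGTG in many promoters of growth and cell cycle genes, while MXD1 competes for MAX and represses such genes. D-type cyclins couple growth factor signals to the cell cycle, because they activate CDK4 and CDK6, which phosphorylate the retinoblastoma protein in G1 phase. In macrophages mCSF is a classical inducer of Myc and Ccnd1, and in intestinal epithelium both genes are known targets of Wnt and β-catenin signaling.

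The D-type cyclin genes encode related proteins from separate chromosomes. Ccnd1 lies at chr7:144929931-144939925 on the minus strand, Ccnd2 at chr6:127125162-127152193 on the minus strand and Ccnd3 at chr17:47505051-47599691 on the plus strand (mm10, GENCODE annotation). The first 90 coding bases of each are shown because the balance among these transcripts differed between the groups. Capitals mark the codons of the L-x-C-x-E motif, by which D-type cyclins bind the retinoblastoma protein, at residues 5 to 9 of cyclin D1 and residues 3 to 7 of the other two.
Ccnd1: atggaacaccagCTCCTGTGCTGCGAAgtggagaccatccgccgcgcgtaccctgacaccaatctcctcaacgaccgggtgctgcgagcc
Ccnd2: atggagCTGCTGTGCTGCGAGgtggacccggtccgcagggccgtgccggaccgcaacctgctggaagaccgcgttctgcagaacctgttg
Ccnd3: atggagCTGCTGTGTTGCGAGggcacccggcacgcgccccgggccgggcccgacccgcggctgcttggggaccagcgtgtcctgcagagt
These stretches lie at chr7:144939604-144939693, chr6:127150684-127150773 and chr17:47593655-47593744 in mm10. Over the whole coding sequence the identity was 66.7% between Ccnd1 and Ccnd2, 63.2% between Ccnd1 and Ccnd3 and 66.2% between Ccnd2 and Ccnd3. No pair of them shared a stretch of 50 coding bases, with 0 such stretches in each pair.

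Promoter sequences, 250 bases before to 50 bases after the start, were available from RefSeq (GRCm38.p6, the same build as mm10) for 7 of the 10 genes. None was available for Myc, Ccnd1 and Ccnd2, so the motif search left these genes out. The promoters of Cdk4 and Cdk6 are shown because both hold the E-box, and because Cdk6 fell in the Wnt3a-treated libraries while Cdk4 passed no test. Capitals mark CACGTG and, in Cdk4, 1 match to the TCF/LEF motif CTTTGAT, read here on the other strand as ATCAAAG. Both lie on the plus strand, at chr10:127063285-127063584 for Cdk4 and chr5:3343643-3343942 for Cdk6.
Cdk4: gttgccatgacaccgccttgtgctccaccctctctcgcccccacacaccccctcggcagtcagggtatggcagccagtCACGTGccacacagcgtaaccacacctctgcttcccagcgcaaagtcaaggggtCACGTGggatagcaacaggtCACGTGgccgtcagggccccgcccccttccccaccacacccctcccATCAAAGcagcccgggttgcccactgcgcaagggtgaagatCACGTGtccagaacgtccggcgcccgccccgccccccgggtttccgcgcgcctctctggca
Cdk6: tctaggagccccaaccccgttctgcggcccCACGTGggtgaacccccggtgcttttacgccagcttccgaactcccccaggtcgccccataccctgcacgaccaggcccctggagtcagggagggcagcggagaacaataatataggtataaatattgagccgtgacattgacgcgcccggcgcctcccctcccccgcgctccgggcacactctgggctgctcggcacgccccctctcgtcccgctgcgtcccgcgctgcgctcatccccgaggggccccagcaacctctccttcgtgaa
The Cdk4 promoter held 4 copies of CACGTG, which reads the same on both strands, at 172, 118, 98 and 11 bases before the start. The TCF/LEF match lay 52 bases before the start and overlapped none of them. Cdk6 held 1 copy of CACGTG at 220 bases before the start and Max held 1 at 3 bases before the start, while no match lay in the windows of Ccnd3, Cdkn1a, Mxd1 and Mycl. Of 32851 promoters of this length, 7.15% held CACGTG and 3.73% held CTTTGAT on either strand. The E2F motifs TTTCGCGC and TTTGGCGC (0.323% and 0.514% of promoters) and the STAT motif TTCNNNGAA (8.30%) had no match in the windows of the 7 genes.

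Among the 3 tested genes of the transcription factor network, Myc was the 1 that passed a test. It encodes c-MYC and lies at chr15:61985391-61990374 on the plus strand (mm10), and no other annotated gene overlaps its exons. In untreated cells of mice 1, 2 and 3 Myc was at 10.7, 13.8 and 11.7 CPM, and with IL-4 it was at 18.3, 20.4 and 22.9 CPM. In the difference it was at 2.12, 2.38 and 2.54 CPM, and in the remainder at 7.20, 5.78 and 6.77 CPM. No 2 of the 4 groups overlapped, with IL-4 highest, then untreated, then the remainder, then the difference. The lowest of these values rested on 35 to 39 counts per library.

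IL-4 alone raised Myc by 0.77 on the log2 scale (SE 0.13, a 1.70-fold rise, edgeR adjusted p = 0.0039), in 3 of 3 mice. Without mouse 3 the rise was 0.65 and the call was lost (adjusted p = 0.29). Against untreated cells Myc fell by 2.36 in the difference (SE 0.16, adjusted p = 1.6e-07), to 0.194 times the untreated level, and fell by 0.87 in the remainder (SE 0.14, adjusted p = 3.6e-04), to 0.546 times. Between the Wnt3a-treated libraries Myc was 2.81-fold higher in the remainder than in the difference (log2 fold change 1.49, SE 0.17, adjusted p = 9.7e-05). The comparison of the mean of both Wnt3a-treated parts with the mean of untreated and IL-4 is the same whichever part had received IL-4, and there Myc fell by 2.003 (SE 0.11, adjusted p = 4.1e-09).

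Max, the obligate partner of MYC, lies at chr12:76937269-76962201 on the minus strand. It ranged from 65.2 to 75.8 CPM in untreated cells, 69.9 to 73.0 CPM with IL-4, 68.7 to 80.4 CPM in the difference and 71.4 to 85.9 CPM in the remainder, and the groups overlapped. For the mean of both Wnt3a-treated parts the log2 fold change of Max was 0.08, with a 95% interval from -0.06 to 0.22 (edgeR adjusted p = 0.38). Mxd1, at chr6:86647042-86669161 on the minus strand, encodes a MAX partner that represses transcription. It ranged from 24.8 to 26.4 CPM in untreated cells, 24.6 to 25.1 CPM with IL-4, 23.6 to 32.6 CPM in the difference and 20.8 to 24.6 CPM in the remainder. The corresponding log2 fold change of Mxd1 was 0.01, with a 95% interval from -0.17 to 0.19 (edgeR adjusted p = 0.96). All 3 remainder libraries lay below the untreated ones for Mxd1, by a log2 fold change of -0.13 (edgeR adjusted p = 0.44). Neither Max nor Mxd1 passed the test in any comparison.

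The balance of transcripts within the network therefore followed Myc. Per kilobase of exon, Max exceeded Myc 4.43-fold in untreated cells (SD 0.437), 2.64-fold with IL-4 (SD 0.316), 23.8-fold in the difference (SD 4.25) and 8.84-fold in the remainder (SD 0.807, n = 3 each). The ratio of Mxd1 to Myc on the same scale was 0.821 (SD 0.0961) in untreated cells and 0.468 (SD 0.0564) with IL-4. It was higher in every Wnt3a-treated library, between 3.81 and 5.92 in the difference and between 1.31 and 1.40 in the remainder. Whether a ratio lies above or below 1 depends on the annotated exon lengths. In CPM, Mxd1 exceeded Myc in untreated cells (means 25.6 and 12.1) and with IL-4 (24.9 and 20.6) as well. Neither ratio overlapped between any of the groups. Mycl, a MYC relative at chr4:122995652-123002485 on the plus strand, was near the limit of detection, at 0.161 to 0.386 CPM in untreated cells, 0.0722 to 0.420 CPM with IL-4, 0.0727 to 0.427 CPM in the difference and 0.394 to 0.621 CPM in the remainder.

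**Figure D1:**
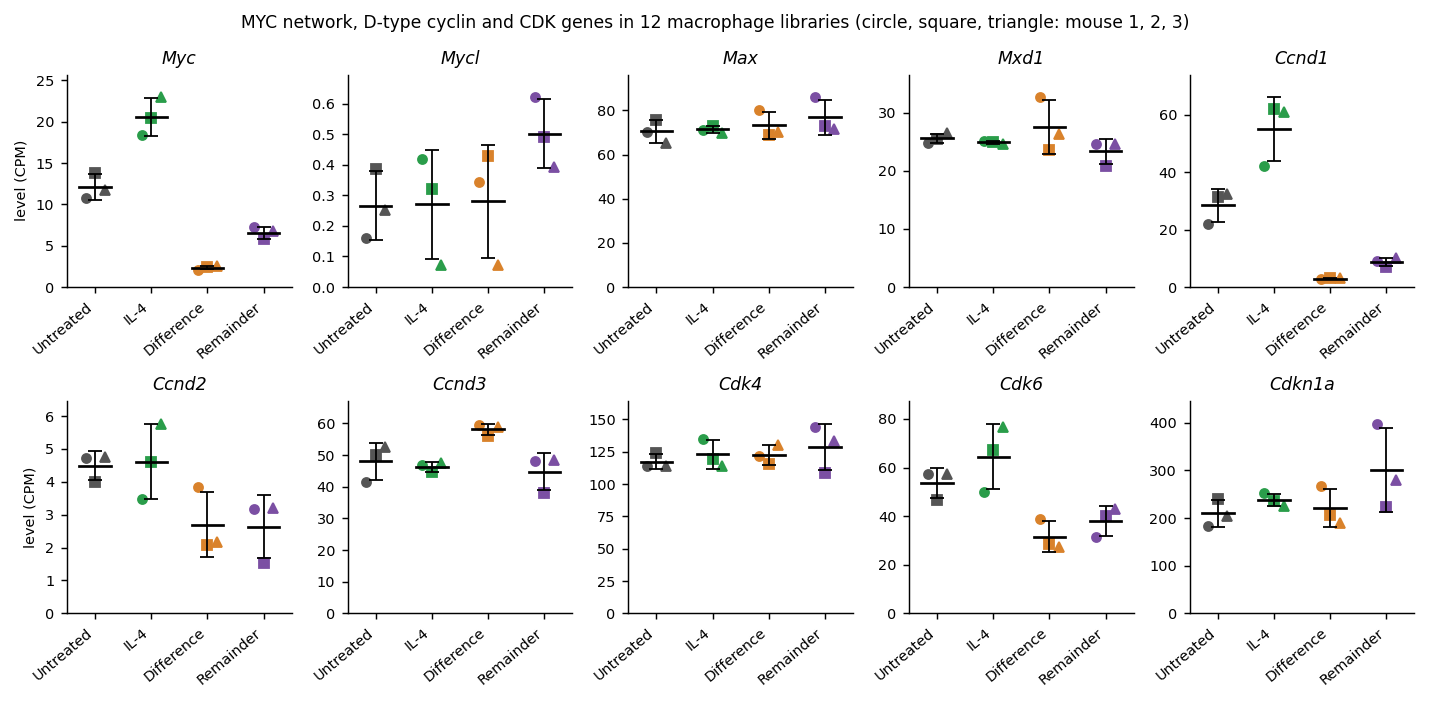
Level of each of the 10 genes in CPM (vertical axes, linear and starting at 0) in the 4 groups, with a point for each of 3 mice and a bar and whiskers for the mean and SD. Myc and Ccnd1 keep 4 separate levels with IL-4 highest and the difference lowest, while Max, Cdk4 and Cdkn1a overlap between groups.

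Ccnd1, which encodes cyclin D1, varied over a wider range than any other tested member. It was at 22, 31.3 and 32.3 CPM in untreated cells of mice 1, 2 and 3 and at 42.3, 61.9 and 61.0 CPM with IL-4. The difference held 2.75, 3.11 and 2.98 CPM and the remainder 9.01, 7.07 and 10.1 CPM. As for Myc, no 2 groups overlapped, and the order of the groups was the same. IL-4 alone raised Ccnd1 by 0.95 on the log2 scale (SE 0.17, edgeR adjusted p = 0.0051), in 3 of 3 mice, and without mouse 3 by 0.96 with the call lost (adjusted p = 0.17). It fell by 3.27 in the difference (SE 0.21, edgeR adjusted p = 1.0e-07), to 0.104 times the untreated level. In the remainder Ccnd1 fell by 1.71 (SE 0.19, adjusted p = 1.0e-05), to 0.305 times. Its level was 2.95-fold higher in the remainder than in the difference (log2 fold change 1.56, SE 0.22, adjusted p = 7.5e-04), a call that was also lost without mouse 3 (1.46, adjusted p = 0.067). Over both Wnt3a-treated parts Ccnd1 fell by 2.97 (SE 0.14, adjusted p = 1.9e-09).

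Of the exon bases of Ccnd1, 23.4% also lie in LTO1 on the opposite strand, and the strand setting of the counting is not stated. LTO1 itself ranged from 24.7 to 33.4 CPM over the 12 libraries and passed no test, with log2 fold changes against untreated of -0.06 (difference) and 0.17 (remainder, edgeR adjusted p = 0.72 and 0.22). Genes on the opposite strand also overlap Ccnd2 (7.86% of exon bases), Cdkn1a (7.68%), Ccnd3 (4.11%) and Cdk6 (2.63%).

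Ccnd2, which encodes cyclin D2, was the scarcest of the 3, at 0.478 CPM per kilobase of exon in untreated cells against 6.06 for Ccnd1 and 5.47 for Ccnd3, from 62 to 88 counts per library. It measured 4.73, 3.99 and 4.77 CPM in untreated cells, 3.48, 4.60 and 5.77 CPM with IL-4, 3.83, 2.08 and 2.18 CPM in the difference and 3.17, 1.54 and 3.22 CPM in the remainder. Both Wnt3a-treated parts lay below every untreated library. Neither comparison with untreated cells alone passed the test, with log2 fold changes of -0.72 (SE 0.30, adjusted p = 0.095) and -0.77 (SE 0.30, adjusted p = 0.074), while over both parts together Ccnd2 fell by 0.76 (SE 0.21, edgeR adjusted p = 0.012). That call was lost without mouse 2 (adjusted p = 0.067) and without mouse 3 (adjusted p = 0.16).

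Ccnd3, which encodes cyclin D3, was highest in the difference but passed no test there. It was at 41.4, 50.04 and 52.5 CPM in untreated cells, 46.8, 44.5 and 47.5 CPM with IL-4, 59.4, 56.0 and 58.9 CPM in the difference and 48.0, 38 and 48.3 CPM in the remainder. All 3 libraries of the difference lay above the other 9. Ranges that did not overlap were common, at 39.2% of all tested genes for the difference against untreated. The differences did not pass the threshold, at 0.28 against untreated (SE 0.11, edgeR adjusted p = 0.077) and -0.38 for the remainder against the difference (SE 0.11, adjusted p = 0.059). The former passed in 1 of 23 alternatives. The latter passed in 4 of 23, among them DESeq2 (adjusted p = 0.026) and edgeR with scaling by total counts (adjusted p = 0.032).

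The shares of the D-type cyclin transcripts differed between the groups. On a per-length scale, Ccnd1 made up 50.2% ± 2.62 (SD, n = 3) of D-type cyclin transcripts in untreated cells and 66.6% ± 4.78 with IL-4, but 8.33% ± 0.795 in the difference and 25.5% ± 1.07 in the remainder. Ccnd3 made up 45.7% ± 1.72 in untreated cells, 30.7% ± 4.95 with IL-4, 87.9% ± 0.677 in the difference and 70.7% ± 1.64 in the remainder. Thus Ccnd3 was the more abundant D-type cyclin transcript in 6 of 6 Wnt3a-treated libraries and Ccnd1 in 3 of 3 IL-4 libraries. Ccnd2 stayed between 2.52% and 5.25% of the total in every library. The summed level was 12 ± 1.86 CPM per kilobase in untreated cells, 17.5 ± 2.40 with IL-4, 7.53 ± 0.252 in the difference and 7.23 ± 1.08 in the remainder. Both Wnt3a-treated parts thus had a like total made of unlike shares. Lengths were those of all annotated exons of a gene, so these shares, and which gene ranks first within a group, depend on the annotation. In CPM, Ccnd3 exceeded Ccnd1 in untreated cells too (means 48.0 and 28.5), and with IL-4 in mouse 1 (46.8 and 42.3).

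**Figure D2:**
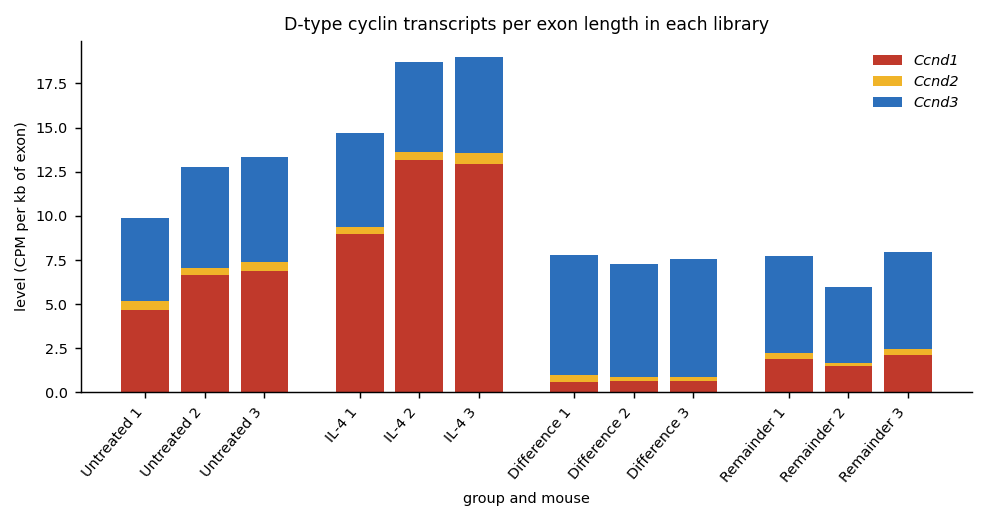
Level of the D-type cyclin transcripts in CPM per kilobase of exon (vertical axis, from 0) in each of 12 libraries, stacked by gene. The Ccnd1 segment is largest with IL-4 and shrinks to 8.33% of the total in the difference, where Ccnd3 takes 87.9%.

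The kinases that D-type cyclins activate differed from each other. Cdk6, at chr5:3341485-3531008 on the plus strand, was at 57.2, 46.5 and 57.3 CPM in untreated cells of mice 1, 2 and 3 and at 49.9, 67.2 and 76.6 CPM with IL-4. It was at 38.9, 28.5 and 27.2 CPM in the difference and 31.3, 39.9 and 42.9 CPM in the remainder, so that all 6 Wnt3a-treated libraries lay below all 6 others. Cdk6 fell by 0.76 in the difference (SE 0.17, edgeR adjusted p = 0.0054), by 0.50 in the remainder (SE 0.17, adjusted p = 0.048) and by 0.76 over both parts (SE 0.12, adjusted p = 2.3e-04). The call in the difference was lost without mouse 3 (-0.62, adjusted p = 0.11). The call in the remainder lay at the threshold and was lost with the mouse as a replicate block (adjusted p = 0.069). It was also lost in 10 of 15 fits that left out a library or a mouse, and all 15 ranged from -0.62 to -0.33.

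Cdk4, whose promoter holds 4 E-boxes, lies at chr10:127063534-127067920 on the plus strand and ranged from 114 to 124 CPM in untreated cells, 114 to 135 CPM with IL-4, 115 to 130 CPM in the difference and 109 to 144 CPM in the remainder. Its log2 fold change over both Wnt3a-treated parts was 0.06, with a 95% interval from -0.09 to 0.22 (edgeR adjusted p = 0.53), and it passed no test. Of its exon bases 19.7% also lie in Tspan31 on the opposite strand. Tspan31 was 0.26 higher over both Wnt3a-treated parts on the log2 scale (SE 0.08, edgeR adjusted p = 0.015). Of the per-length transcripts of both kinases, Cdk6 made up 9.64% ± 1.40 (SD, n = 3) in untreated cells, 11% ± 2.84 with IL-4, 5.65% ± 1.15 in the difference and 6.54% ± 1.57 in the remainder.

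Cdkn1a encodes p21, an inhibitor of cyclin-dependent kinases and a known p53 target, and lies at chr17:29090976-29100727 on the plus strand. Per length it was the most abundant of the 10 genes in untreated cells, at 59.0 CPM per kilobase, above Cdk4 at 36.1 and Max at 19.6. Cdkn1a was at 184, 240 and 205 CPM in untreated cells and at 252, 236 and 226 CPM with IL-4. It was at 267, 207 and 189 CPM in the difference and 398, 224 and 280 CPM in the remainder, and all groups overlapped. Cdkn1a rose by 0.52 in the remainder (SE 0.18, edgeR adjusted p = 0.045) and was 0.08 higher in the difference (SE 0.18, adjusted p = 0.80). The rise rested on the remainder library of mouse 1, without which it was 0.28 (adjusted p = 0.22). Its call was also lost with the mouse as a replicate block (0.49, adjusted p = 0.055). The same held in 10 of 15 fits that left out a library or a mouse, and all 15 ranged from 0.18 to 0.81.

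Counted over the 9 tested members, IL-4 raised 2 and lowered 0 by edgeR, where 3.40% of all 12421 tested genes passed. Against untreated cells the difference raised 0 and lowered 3 (all genes, 23.2%), and the remainder raised 1 and lowered 3 (all genes, 25.3%). Between remainder and difference 2 members were higher and 0 lower (all genes, 5.25%). Over both Wnt3a-treated parts 0 rose and 4 fell (all genes, 32.6%), so that the share of members was near that of all genes while the sizes differed, with Myc and Ccnd1 far below the member median of 0.0067. At an unadjusted p under 0.05 the higher and lower members numbered 2 and 0, 1 and 4, 1 and 4, 3 and 1, and 0 and 4 in this order, and with DESeq2 they numbered 2 and 0, 0 and 3, 1 and 3, 2 and 1, and 0 and 4. These comparisons share libraries and are not independent of each other. CPM ranges that do not overlap were common in the whole table as well, at 19.8% of tested genes for IL-4 against untreated, 39.2% for the difference against untreated and 35.6% for the remainder against untreated. The shares were 22.4% for the remainder against the difference, 38.6% for the difference against IL-4 and 35.9% for the remainder against IL-4.

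**Figure D3:**
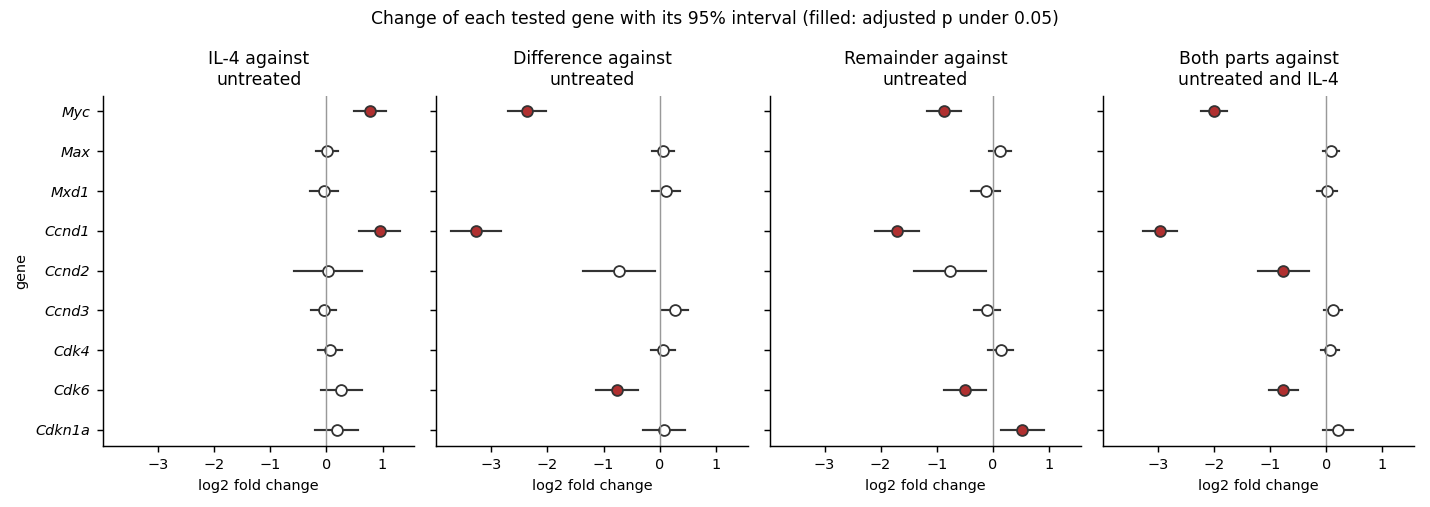
Log2 fold change (horizontal axis) of the 9 tested genes in 4 comparisons, with 95% intervals as lines and filled points where the edgeR adjusted p was under 0.05. Myc and Ccnd1 lie to the right with IL-4 alone and furthest to the left in the Wnt3a-treated parts, while the intervals of Max, Mxd1 and Cdk4 include 0 in every panel.

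Whether IL-4 acted on these genes in the same way with and without Wnt3a depends on which part had received IL-4. If the remainder is the combined treatment, the effect of IL-4 with Wnt3a exceeded that without it by 0.72 for Myc (SE 0.21, edgeR adjusted p = 0.21) and 0.61 for Ccnd1 (SE 0.28, adjusted p = 0.39), and 0 of 9 members passed, against 0.105% of all genes. With DESeq2 0 of 9 members passed as well, and at an unadjusted p under 0.05 edgeR gave 3, which were Myc, Ccnd1 and Ccnd3. If the difference is the combined treatment, the effects of IL-4 with and without Wnt3a differed by -2.26 for Myc (SE 0.21, edgeR adjusted p = 1.0e-05) and -2.51 for Ccnd1 (SE 0.28, adjusted p = 4.7e-05), and 2 of 9 members passed, against 7.33% of all genes. Under the first reading IL-4 raised both genes with and without Wnt3a, and under the second it raised them without Wnt3a and lowered them with it. The macrophage marker Mrc1, a gene that IL-4 is known to induce and that was picked out after its values were seen, ranged from 36.4 to 66.8 CPM in untreated cells, 191 to 270 CPM with IL-4, 22.5 to 35.0 CPM in the difference and 133 to 153 CPM in the remainder. Mrc1 was thus above untreated cells in the remainder, as with IL-4 alone, and below them in the difference. The labels do not decide between the readings, and no library was assigned to a treatment by its values.

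Genes with patterns like those of the members were sought among the 8511 genes that averaged 8 CPM or more, by Pearson r of log2 CPM over the 12 libraries. The closest to Myc were Ccnd1 (r = 0.988) and Plk2 (r = 0.986), and the closest to Ccnd1 were Plk2 (r = 0.993) and Myo1e (r = 0.990). Plk2, which encodes a polo-like kinase, averaged 82.4 CPM untreated, 110 CPM with IL-4, 27.1 CPM in the difference and 48.8 CPM in the remainder, and Myo1e, which encodes a class I myosin, averaged 242, 336, 95.4 and 139 CPM in the same order. Both thus had the group order of Myc and Ccnd1 over a narrower range. Closest to Cdk6 were Mtss1 (r = 0.950) and Tnfrsf11a (r = 0.949), which encodes the receptor RANK. Closest to Cdkn1a were Phlda3 (r = 0.952), another known p53 target, and Pcsk7 (r = 0.932). For Ccnd3 they were Jmjd6 (r = 0.908) and Mvb12b (r = 0.894), for Cdk4 Akr1a1 (r = 0.964) and Atp6v0d1 (r = 0.959), for Max Ccnk (r = 0.883) and Dynlrb1 (r = 0.882), and for Mxd1 Qrich1 (r = 0.787) and Reep4 (r = 0.772). The points are groups of libraries from 3 mice, so these values describe likeness of pattern and carry no test.

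Of the other genes of the MYC, MAX and MLX network, 3 of 8 tested passed over both Wnt3a-treated parts, near the 32.6% of all genes called there. With IL-4 alone 0 of the 8 passed by edgeR, against 1 at an unadjusted p under 0.05 and 0 with DESeq2, and over both parts 1 rose and 2 fell, with a list median of -0.07 against -0.02 for all genes. Mlx, which encodes a MAX-like protein, rose by 0.20 (SE 0.06, edgeR adjusted p = 0.015), while Mxd4, a MAX-binding repressor like Mxd1, fell by 0.43 (SE 0.07, adjusted p = 3.9e-04). Against untreated cells alone both passed in the difference only. There Mlx was at 0.24 (edgeR adjusted p = 0.0497) and Mxd4 at -0.42 (adjusted p = 0.010). In the remainder they were at 0.17 (edgeR adjusted p = 0.15) and -0.13 (adjusted p = 0.38).

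Known MYC targets, most of them genes of ribosome biogenesis, were called no more often than all genes over both Wnt3a-treated parts (7 of 28, against 32.6%). Of the 28 tested, IL-4 raised 1 and lowered 0 by edgeR with a median of 0.04 (2 and 0 at an unadjusted p under 0.05, 1 and 0 with DESeq2), and over both parts 5 rose and 2 fell with a median of -0.01, against -0.02 for all genes. Ldha, which encodes a lactate dehydrogenase subunit, rose by 0.58 (SE 0.08, edgeR adjusted p = 7.3e-05), and Nme1, a nucleoside diphosphate kinase gene, rose by 0.48 (SE 0.09, adjusted p = 8.8e-04). Tfrc, which encodes the transferrin receptor, fell by 0.63 (SE 0.17, adjusted p = 0.0096), and Gnl3, which encodes nucleostemin, fell by 0.29 (SE 0.10, adjusted p = 0.043), a call that DESeq2 did not make. Tfrc was also the 1 target that IL-4 alone raised, by 1.30 (SE 0.23, edgeR adjusted p = 0.0052). Its fall is measured against the mean of untreated and IL-4. Against untreated cells alone Tfrc passed in neither part, at -0.18 in the difference (edgeR adjusted p = 0.64) and 0.22 in the remainder (adjusted p = 0.53).

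Among the other G1 genes, cyclins, kinases, inhibitors and pocket proteins, IL-4 changed 0 of 22 tested by edgeR, against 3 at an unadjusted p under 0.05 and 0 with DESeq2, and over both Wnt3a-treated parts 3 rose and 1 fell (median -0.08 against -0.02 for all genes). These 4 of 22 compare with 32.6% of all genes. Ccne1, which encodes cyclin E1, rose by 0.71 (SE 0.13, edgeR adjusted p = 7.4e-04), opposite in sign to Ccnd1. Cdkn2b, which encodes the CDK4 and CDK6 inhibitor p15, rose by 0.71 (SE 0.22, adjusted p = 0.023) but did not pass with DESeq2. Its level was low, with means of 0.569 CPM untreated, 1.15 with IL-4, 1.15 in the difference and 1.51 in the remainder. With IL-4 alone it was 1.02 higher than untreated (SE 0.33, edgeR adjusted p = 0.14). E2f2, a transcription factor gene, rose by 0.31 over both parts (SE 0.10, adjusted p = 0.034). Cdkn1c, which encodes the inhibitor p57, fell by 1.63 (SE 0.21, edgeR adjusted p = 3.2e-05). The inhibitor genes Cdkn1b, Cdkn2c and Cdkn2d did not pass over both parts, at -0.07, -0.20 and 0.29. Against untreated cells, however, Cdkn1b fell by 0.31 in the remainder (SE 0.10, edgeR adjusted p = 0.036) and was at 0.02 in the difference (adjusted p = 0.92).

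Of 15 tested p53 targets, 2 rose and 4 fell over both Wnt3a-treated parts (median -0.06 against -0.02 for all genes), near the 32.6% of all genes called there. At an unadjusted p under 0.05 edgeR gave 3 higher and 6 lower, and DESeq2 called 2 and 4. Phlda3 rose by 0.52 (SE 0.18, edgeR adjusted p = 0.043), and the lowest was Plk2, which fell by 1.38 (SE 0.06, adjusted p = 1.5e-09). Against untreated cells Phlda3 rose by 1.11 in the remainder (SE 0.26, edgeR adjusted p = 0.0055) and was 0.20 higher in the difference (adjusted p = 0.64), while Plk2 fell by 0.76 and by 1.60. With IL-4 alone 1 of the 15 rose, Plk2, by 0.41 (SE 0.09, adjusted p = 0.016).

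Genes of S phase and mitosis were the list with the most calls with IL-4 alone, where 5 of 18 rose and 0 fell by edgeR, with a median of 0.56 against -0.0030 for all genes and with 3.40% of all genes called. At an unadjusted p under 0.05 they numbered 10 and 0, and with DESeq2 6 and 0. The 5 were Mcm2, Mcm4, Mcm5 and Mcm6, subunits of the replicative helicase, and Pcna, the sliding clamp of DNA polymerases. They rose by between 0.54 and 0.81, Mcm6 by 0.56 (SE 0.08, edgeR adjusted p = 9.1e-04) and Pcna by 0.59 (SE 0.10, adjusted p = 0.0046). Over both Wnt3a-treated parts 2 of 18 rose and 3 fell, near the 32.6% of all genes called. Pcna fell by 0.56 (SE 0.07, edgeR adjusted p = 4.0e-05) and Mcm6 by 0.41 (SE 0.06, adjusted p = 6.0e-05), whereas the mitotic genes Ccnb1 and Aurkb rose by 0.70 (SE 0.25, adjusted p = 0.044) and 0.43 (SE 0.15, adjusted p = 0.040). The falls of Pcna and Mcm6 are measured against the mean of untreated and IL-4. Against untreated cells alone Pcna fell by 0.39 in the difference (SE 0.11, edgeR adjusted p = 0.015) and was at -0.14 in the remainder (SE 0.10, adjusted p = 0.34). Mcm6 passed against untreated cells in neither part, at -0.22 in the difference (edgeR adjusted p = 0.062) and -0.05 in the remainder (adjusted p = 0.73). Nor did Ccnb1, at 0.69 in the difference (edgeR adjusted p = 0.18) and 0.93 in the remainder (adjusted p = 0.068). Its means were low, at 1.74 CPM in untreated cells and 3.33 CPM in the remainder. Aurkb passed in the remainder (0.64, edgeR adjusted p = 0.040) but not in the difference (0.61, adjusted p = 0.052).

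**Figure D4:**
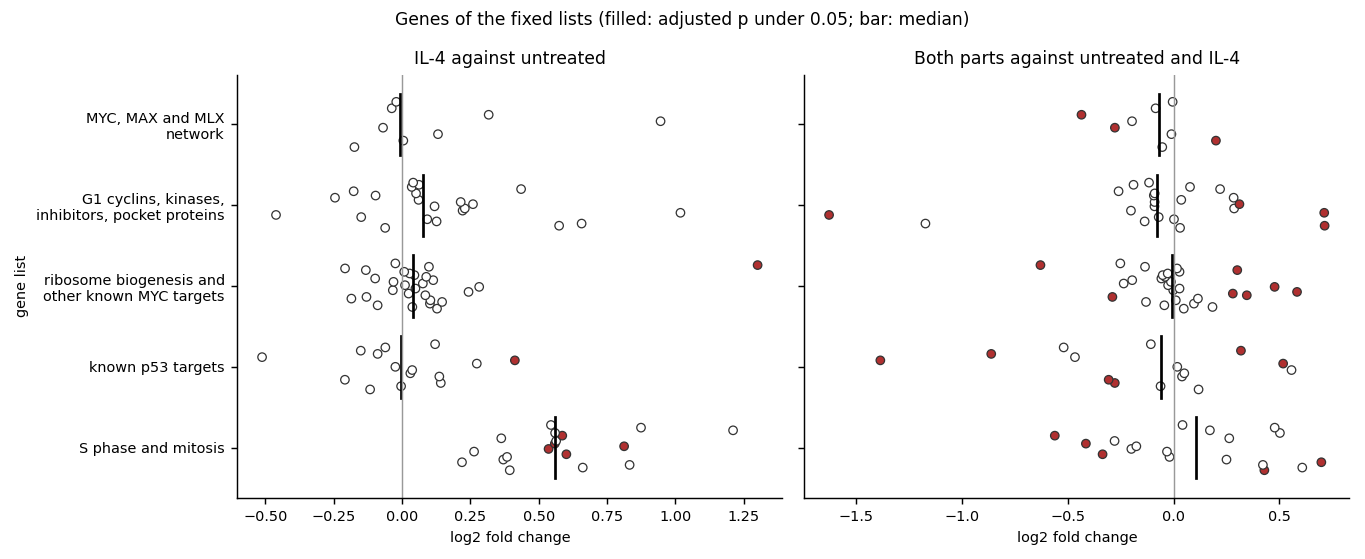
Log2 fold change (horizontal axis) of the tested genes of 5 lists with IL-4 alone (left) and over both Wnt3a-treated parts (right), with filled points where the edgeR adjusted p was under 0.05 and a bar at the median. S phase and mitosis genes center at 0.56 with IL-4, while the 28 MYC targets center near 0 in both panels.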

How the data were processed

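RNA of BMDMs from 3 mice in 4 treatment groups was sequenced, and the authors deposited raw read counts per gene, with no normalization. Per the submitters' processing notes, FastQC 0.11.7, Trimmomatic 0.36, STAR 2.6.0, SAMtools 1.9, HTSeq 0.11.1 and DESeq2 1.24.0 were used with build mm10, and the strand setting is not given in the sources used here. Identifiers were matched to GENCODE M21, which named 48058 of 48526 genes. Because the Wnt3a and Wnt3a+IL4 columns of a mouse share reads, they were replaced by the difference and the remainder. The 12421 genes that reached 10 counts in 3 or more libraries were tested with edgeR 4.0.16 (R 4.3.3, quasi-likelihood test, TMM normalization, 12 libraries in 1 fit of group means), with Benjamini-Hochberg adjustment over all of them and a threshold of 0.05. The libraries had totals of 13342492 to 17453377 counts, and CPM values used the TMM-scaled library sizes of the fit, from 13754435 to 18605359. The SE is the log2 fold change divided by the root of its F statistic. The test was tried on simulated counts first.

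The labels give 1 sample of each mouse to each group. Deviations of same-mouse libraries from their group means correlated between -0.42 and 0.45, with 6 of 18 pairs over 0.1. The mouse as a replicate block was therefore an alternative, beside DESeq2 1.42.0, other scalings and filters, the groups compared alone, the deposited columns and leaving out each mouse or library. The p-values measure the spread between cultures of 3 mice. The text names the 10 members, the called genes with the highest and lowest change in each list, and the genes closest to a member by correlation, and any other listed gene was named after its values were seen. The members, lists and comparisons were chosen with earlier results of these data known.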

Additional observations from a re-analysis of the deposited data

Results flagged for a closer look

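The effect of IL-4 on Myc and on Ccnd1 differed between cells with and without Wnt3a when the difference is read as the combined treatment, by -2.26 for Myc (SE 0.21, edgeR adjusted p = 1.0e-05) and -2.51 for Ccnd1 (SE 0.28, adjusted p = 4.7e-05). In that reading IL-4 raised both genes without Wnt3a and lowered both with it, in 3 of 3 mice each. With the remainder read as the combined treatment the same test gave 0.72 for Myc (adjusted p = 0.21) and 0.61 for Ccnd1 (adjusted p = 0.39). The labels do not say which reading holds. Mrc1, which IL-4 is known to induce, averaged 28.5 CPM in the difference and 142 CPM in the remainder, against 50.4 CPM in untreated cells and 222 CPM with IL-4 alone, so the reading with the opposite effects is the one in which Mrc1 was lower in the cells given IL-4.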

How the results depend on the processing

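No called member changed direction under any alternative: of 17 calls, 17 kept their direction and 9 passed in every one of the 22 or 23 alternatives run for them. With IL-4 the number of members called ranged from 0 (without mouse 3) to 2 when a library or mouse was left out, and in the remainder against untreated cells from 2 to 4. The paired fit with the mouse as a replicate block gave 2 there in place of 4, with Cdk6 and Cdkn1a lost, and changed no other call of a member. Between remainder and difference the count was 2, from 1 to 3 with a library or mouse left out, 4 when all genes with at least 1 count were tested and 0 with the deposited columns, which share reads and put Myc at 0.24 and Ccnd1 at 0.25. With the difference as the combined treatment the count was 2, and 4 with all genes of at least 1 count. The cause of these changes was not tested. The number of all genes called moved as well. When all genes with at least 1 count were tested it went from 422 to 812 for IL-4, from 652 to 1454 for the remainder against the difference, and for the interactions from 910 to 1505 with the difference and from 13 to 575 with the remainder as the combined treatment. With the deposited columns the same 4 counts were 708, 0, 311 and 142, and without mouse 3 they were 77, 97, 265 and 0. DESeq2 called 161 for the last of them, and the remainder against the difference gave 422 with the groups compared alone. Without mouse 3, the calls fell from 2884 to 1220 in the difference, from 3137 to 1375 in the remainder and from 4050 to 2081 over both parts. Without mouse 1 or 2, or without 1 library, the remainder against the difference gave from 355 to 1188 calls, IL-4 at least 250, the interaction with the difference up to 1459 and that with the remainder from 0 to 43. Scaling by total counts moved the median of all genes in the remainder from -0.02 to -0.13, and its calls from 1687 higher and 1450 lower to 1293 and 2342. It moved those of the difference from 1462 and 1422 to 1131 and 2238, those over both parts from 2046 and 2004 to 1633 and 2866, and those of IL-4 from 287 and 135 to 247 and 212. The counts behind Myc, Ccnd1 and Ccnd2 in the Wnt3a-treated libraries, 25 to 153 each, limit the precision of their ratios, and Mycl was too low to test. Genes of the lists were recomputed with DESeq2 only.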
